A study of Mus musculus with 25 samples.

Results

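The change of the mouse embryo transcriptome between the 2-cell stage and the blastocyst was described from 4 RNA-sequencing libraries, 2 of 2-cell embryos labelled WT (embryonic day 1.5) and 2 of blastocysts labelled Control (embryonic day 4.0). Both groups were whole embryos of the BDF1 strain, and the labels of these 4 libraries named no treatment, no allele and no transgene beyond the words WT and Control. The 4 libraries were chosen by those labels, out of 25 samples in the series and 11 embryo expression libraries. The series deals with the stress response of early embryos and Fzr1, a coactivator of the anaphase-promoting complex. Its design compared WT with IVF (in vitro fertilised) embryos and Fzr1-OE with control embryos, so the step from one stage to the other was a comparison that the samples allow but that was not the design's stated aim. Whether Control embryos were injected or otherwise handled is not given in the sources used here. The WT and Control labels, the stage, any handling, the sequencing depth and any batch are the same split of the 4 libraries and cannot be told apart. The number of embryos in a library is not given in the sources used here, and nothing in the labels says that replicates came from separate litters or cultures, so the p-values measure the spread between these libraries, which may be technical.

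At the 2-cell stage the mouse embryo switches on its own genome for the first time in a large burst while it destroys much of the RNA stored in the egg. Over the next cleavages the cells make junctions, the outer cells become the trophectoderm, an epithelium that pumps fluid into the blastocyst cavity, and the inner cells split into epiblast and primitive endoderm. Energy use moves over the same days from pyruvate and lactate towards glucose. These steps are background; the values below come from the libraries.

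The tables gave each of 24708 gene loci (24257 symbols) an FPKM, a count of sequenced fragments scaled by transcript length and by the size of the library. A locus was tested when its mean over the 4 libraries was at least 1 FPKM, which left 9693 loci. On the log2(FPKM + 1) scale, limma called 5883 of them at an adjusted p under 0.05, 60.7% of those tested, so a call at one gene was the common case and not the exception. Of these, 4126 rose (42.6% of the loci tested) and 1757 fell (18.1%). With 2 libraries a side, a lack of overlap between the stages was also the common case. Both blastocyst libraries lay above both 2-cell libraries at 56.5% of the loci tested and below them at 26.4%. Without Control replicate 1 the counts were 1226 and 198, and without replicate 2 they were 1265 and 229, since the lone Control library was then assumed to vary like the 2-cell pair. The median log2 change over all loci tested was 0.92, with quartiles of -0.64 and 2.24, and single loci ranged from -11.89 to 11.49. All changes below are on the log2(FPKM + 1) scale, which understates the change of genes at low levels. A signed number in brackets after a gene is its log2 change, blastocyst minus 2-cell.

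Most of that upward shift moved with how the libraries were scaled. The FPKM summed to 309563 and 298129 in the 2-cell libraries and to 529532 and 518002 in the blastocyst libraries. With every library brought to the same FPKM total, the median change was 0.29 and the split was 3073 higher against 2471 lower. It was 3061 against 2489 after upper-quartile scaling (median 0.28), 3529 against 2111 after median-ratio scaling (median 0.59) and 2645 against 2822 after quantile normalization (median 0.01). A limma test against a 2-fold change called 2579 higher (26.6%) and 843 lower (8.7%). Calls that kept their direction under all 5 scalings numbered 2563 higher (26.4%) and 1755 lower (18.1%). Each count of a gene group below is therefore followed by the number that held under all 5. This check could remove rises but hardly any falls, because the scale as deposited had the highest median of the 5 (0.92). The number of falls that held is therefore no sign that falls were more robust than rises. That number also leaves out falls called only under another scaling, which are part of the 2471 lower with equal totals. FPKM is a share of each library, and no measure of RNA per embryo was used, so none of these scales says whether an embryo held more or fewer molecules of a transcript.

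**Figure D1:**
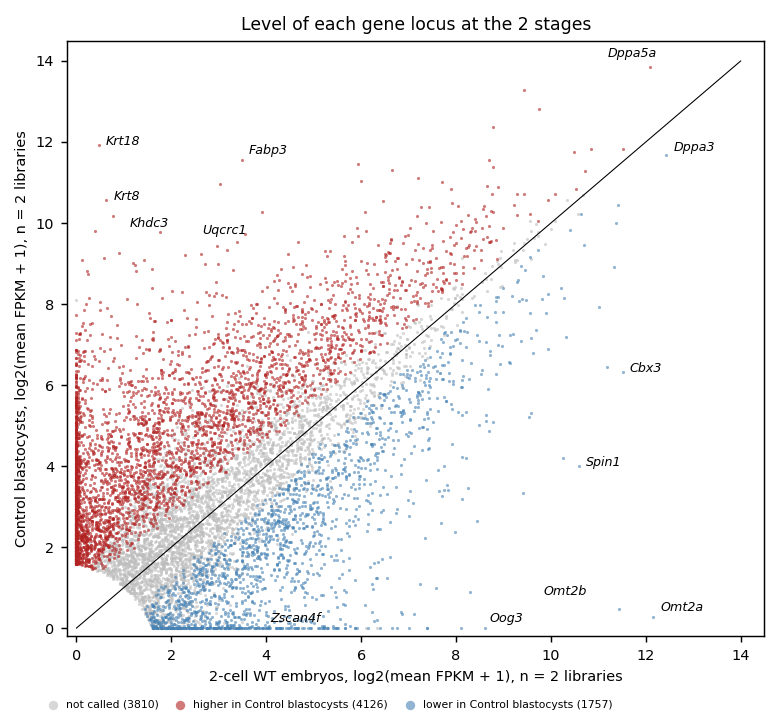
Mean FPKM of each of the 9693 tested loci (n = 2 libraries per stage) at the 2-cell stage (x axis) and in blastocysts (y axis), both as log2(FPKM + 1). Red points are the 4126 loci called higher and blue points the 1757 called lower in Control blastocysts, grey points were not called, the line marks equal levels, and Krt18 and Omt2a lie farthest from it.

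The libraries implied 4742698 and 5271865 fragments at the 2-cell stage and 9446370 and 9438125 in blastocysts, so a value of 1 FPKM carried a counting error (2 SD) of 28.7% to 32.6%. Loci above 0 numbered 10559 and 10085 at the 2-cell stage and 13658 and 13736 in blastocysts. The 2 blastocyst libraries were closer to each other (Pearson r = 0.990 across all 24708 loci, on the log2 scale) than the 2-cell pair (0.927). Pairs across stages lay between 0.728 and 0.754. Of these loci, 8772 were listed at 0 in all 4 libraries, and loci are not independent replicates. Genes that every cell uses were at or near 0 in the 2-cell libraries, among them Eno1 and Tpi1 of glycolysis and Rfc3 and Pold2 of DNA replication. A 0 is therefore given only as listed at 0, with no fold bound. Likewise, a value near 0 is not read as absence of the message, and the labels give polyA RNA as the material. Lists of other cells that an embryo sample could hold were also summed. The summed FPKM in the 4 libraries ran from 1.26 to 5.34 for cumulus and granulosa genes, from 0 to 7.61 for sperm genes, from 4.55 to 20.0 for blood genes and from 0.479 to 7.37 for fibroblast genes. Of the members in the tables, 8 of 12, 6 of 10, 5 of 11 and 5 of 10 were at 0 in every library. One member each of the blood, sperm and fibroblast lists was called higher in blastocysts under all 5 scalings. Cd68, a macrophage gene, measured 0.278 and 0 FPKM in the 2-cell libraries and 18.8 and 7.49 FPKM in the blastocysts. Fbln1 of the fibroblast list had 0.425 and 0.0862 FPKM in the 2-cell libraries and 7.19 and 5.63 FPKM in the blastocyst libraries, and Tnp2 of the sperm list was listed at 0 in both 2-cell libraries and stood at 2.52 and 3.0 FPKM in the blastocyst libraries. The part of such cells in any result was not tested.

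Marker genes of the labelled stages were where the labels place them, with exceptions. Zscan4c, Zscan4d and Zfp352 were above 6 FPKM in both 2-cell libraries and listed at 0 in both blastocyst libraries. Krt8, Krt18, Gata3, Cdx2, Pou5f1, Zfp42, Nanog, Sox2, Gata6, Sox17 and Pdgfra were higher in blastocysts. Fgf4 of the epiblast and Gata4 of the primitive endoderm went the other way, Tfap2c was not called, and Sox7 was below the level needed for a test. The oocyte markers Zp3, Bmp15 and Nlrp5 were higher at the 2-cell stage, where Gdf9 was not called and Zp2 was too low to test.

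**Figure D2:**
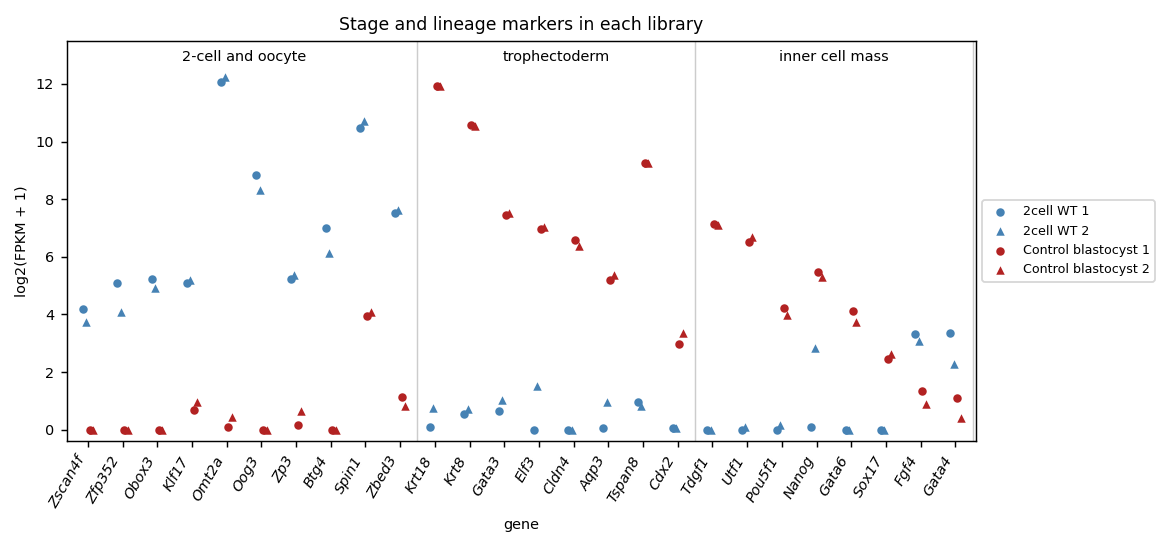
Level of 26 stage and lineage markers in each of the 4 libraries, as log2(FPKM + 1); blue points are 2-cell WT and red points Control blastocyst libraries. The 2-cell and oocyte markers lie higher in the blue points, the trophectoderm markers in the red, and Fgf4 and Gata4 stand apart from the other inner cell mass markers in lying higher at the 2-cell stage.

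Most transcripts known for the burst of genome activation fell. In the 2-cell stage list, 1 rose (0 under all 5 scalings) and 18 fell (18 under all 5 scalings) of 22 tested, with a median log2 change of -3.31. Zscan4f, a zinc finger protein of the tandem cluster that marks 2-cell embryos, measured 17.3 and 12.4 FPKM in the 2-cell libraries and was listed at 0 in both blastocyst libraries. Zfp352, a zinc finger gene made from a retrotransposed copy, had 32.8 and 15.9 FPKM in the 2-cell libraries and was listed at 0 in both blastocyst libraries. Obox3, one of the oocyte-specific homeobox family, stood at 36.7 and 29 FPKM in the 2-cell libraries and was listed at 0 in both blastocyst libraries. In all 3 genes both blastocyst libraries were at 0 and both 2-cell libraries far above, so the groups did not overlap, as at 26.4% of all loci tested for a fall. The fitted changes were -3.97 for Zscan4f, -4.58 for Zfp352 and -5.07 for Obox3. Usp17lb, a deubiquitinase gene of a repeated family, measured 30.8 and 41.7 FPKM in the 2-cell libraries and was listed at 0 in both blastocyst libraries. Klf17, a Krüppel-like factor, did not reach 0, and had 33.2 and 35.6 FPKM in the 2-cell libraries and 0.591 and 0.93 FPKM in the blastocyst libraries (log2 change -4.34, SE 0.23, limma adjusted p = 0.00172). The one member that rose, the translation initiation factor gene Eif1a, stood at 46 and 45.9 FPKM in the 2-cell libraries and at 104 and 95.5 FPKM in the blastocysts, and its call was lost under another scaling. Zscan4, Tdpoz, Obox and Usp17l genes have near-identical copies, so reads may have been split among them and the value of one copy is uncertain.

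Zscan4c, Zscan4d and Zscan4f, which all fell, share a stretch around a TATAAA box, shown because they moved together. The stretches were read from RefSeq promoter windows (GRCm38.p6, 250 bases before to 50 after each gene start, 5′ to 3′ on the gene's strand), and the capitals mark TATAAA. They lie at chr7:11005681-11005716 (plus strand) for Zscan4c, chr7:11166188-11166223 (minus strand) for Zscan4d and chr7:11397874-11397909 (plus strand) for Zscan4f.
Zscan4c: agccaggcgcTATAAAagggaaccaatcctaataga
Zscan4d: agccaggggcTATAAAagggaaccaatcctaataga
Zscan4f: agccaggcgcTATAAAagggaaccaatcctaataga
The Zscan4d stretch differs from the Zscan4c stretch at 1 of 36 bases, the Zscan4f stretch at 0, and in each a CCAAT follows 6 bases after the box. The box starts 54, 65 and 31 bases before the gene start in Zscan4c, Zscan4d and Zscan4f. Searched on both strands, TATAAA was in 44.4% of the 18 windows matched to the 2-cell stage list, against 7.24% of the 7795 windows matched to tested symbols and 14.2% of 27025 RefSeq windows. CCAAT was in 72.2% of the 18, against 40.4% and 37.9%. Several of the 18 belong to one tandem family and so are not separate instances, and a match of letters is a description of the window and no evidence of binding.

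Whole windows of Zscan4f and Omt2a, which fell, and of Krt18 and Rfc3, which rose, are printed as chosen examples, with every CG in capitals. They show low and high CpG content and do not stand for all loci that fell or rose. The ratio of observed to expected CpG was 0.186 for Zscan4f (chr7:11397665-11397964, plus strand, 3 CG), 0.0557 for Omt2a (chr9:78313999-78314298, minus strand, 1 CG), 0.603 for Krt18 (chr15:102027966-102028265, plus strand, 17 CG) and 0.963 for Rfc3 (chr5:151651159-151651458, minus strand, 21 CG).
Zscan4f: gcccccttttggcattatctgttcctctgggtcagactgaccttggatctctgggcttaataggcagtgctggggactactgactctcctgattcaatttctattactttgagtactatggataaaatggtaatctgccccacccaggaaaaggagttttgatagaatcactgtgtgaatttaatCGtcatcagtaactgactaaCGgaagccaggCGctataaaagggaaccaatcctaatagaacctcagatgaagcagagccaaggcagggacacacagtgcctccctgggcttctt
Omt2a: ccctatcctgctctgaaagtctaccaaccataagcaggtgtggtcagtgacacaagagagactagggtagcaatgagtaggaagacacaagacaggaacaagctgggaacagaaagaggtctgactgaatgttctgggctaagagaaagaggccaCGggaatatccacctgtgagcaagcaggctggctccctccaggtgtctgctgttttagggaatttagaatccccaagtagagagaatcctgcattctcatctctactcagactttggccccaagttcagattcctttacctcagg
Krt18: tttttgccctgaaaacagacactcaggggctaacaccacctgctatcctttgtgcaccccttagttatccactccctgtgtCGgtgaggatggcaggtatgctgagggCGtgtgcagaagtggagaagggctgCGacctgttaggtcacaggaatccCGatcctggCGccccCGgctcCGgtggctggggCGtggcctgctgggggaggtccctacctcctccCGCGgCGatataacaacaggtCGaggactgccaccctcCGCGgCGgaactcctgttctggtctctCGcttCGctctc
Rfc3: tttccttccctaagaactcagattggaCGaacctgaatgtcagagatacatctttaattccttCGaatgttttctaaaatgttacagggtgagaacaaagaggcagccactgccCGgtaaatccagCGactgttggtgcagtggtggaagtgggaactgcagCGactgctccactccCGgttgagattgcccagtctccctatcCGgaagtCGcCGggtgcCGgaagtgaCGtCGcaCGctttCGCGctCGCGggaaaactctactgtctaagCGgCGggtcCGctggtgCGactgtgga
A ratio under 0.4 was found in 88.9% of the 18 windows of the 2-cell stage list and in 88.9% of the 18 of the Obox and Tcl1 clusters list, which also holds Oog, Omt2, Rfpl4 and Oas1 genes of the oocyte. The share was 40.7% of 27 trophectoderm windows, 2.99% of 67 windows of oxidative phosphorylation genes and 0% of 60 windows of cytosolic ribosomal protein genes. Over all matched loci it was 13.0%, with 12.4% of those that rose, 19% of those that fell and 11% of those not called. The 100 largest falls at 5 FPKM or more held 44%, and the 100 largest rises 28%. The median ratio was 0.783 for loci that fell, 0.757 for those that rose and 0.787 over all matched loci. For the 100 largest falls and the 100 largest rises it was 0.507 and 0.613.

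Genes known from the oocyte were among the largest falls. Omt2a, an oocyte maturation gene, measured 4254 and 4896 FPKM in the 2-cell libraries and 0.058 and 0.372 FPKM in the blastocyst libraries. It was the second most abundant transcript of the 2-cell libraries by mean and fell the farthest of all tested loci (log2 change -11.89, SE 0.20, limma adjusted p = 0.00151). Its neighbour Omt2b, a close copy that may share reads with it, had 2532 and 3017 FPKM in the 2-cell libraries and 0.711 and 0.058 FPKM in the blastocysts (-11.00). Oog3, an oogenesin of the PRAME-like family, stood at 459.9 and 317 FPKM in the 2-cell libraries and was listed at 0 in both blastocyst libraries. Spin1, a histone-mark reader abundant in the egg, measured 1402 and 1688 FPKM in the 2-cell libraries and 14.3 and 15.9 FPKM in the blastocysts. The 2-cell libraries of both genes were more than an order of magnitude above the blastocyst libraries. Log2 changes were -8.58 for Oog3 and -6.58 for Spin1. Others among the 12 largest falls were Khdc1b (-7.39), Trim61 (-7.36), Fbxw24 (-7.35), Zbed3 (-6.61), Nexn (-6.47), Paip1 (-6.19) and Arglu1 (-6.15). Of these, Paip1 binds the poly(A)-binding protein and Zbed3 is known in the mouse egg as a partner of the subcortical maternal complex.

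Most oocyte genes of the Obox and Tcl1 clusters list fell, among them Oog3, Omt2a and Omt2b, which are neither homeobox nor Tcl1 genes. The Obox and Tcl1 clusters list had 21 tested members, of which 0 rose and 18 fell (18 under all 5 scalings), at a median log2 change of -4.90. Obox6 had 400.2 and 297 FPKM in the 2-cell libraries and 4.13 and 6.41 FPKM in the blastocyst libraries (-5.81), and Tcl1b1 stood at 46.4 and 68.7 FPKM in the 2-cell libraries and was listed at 0 in both blastocyst libraries (-5.85). The zona, growth factor and meiosis genes were mixed. Of 11 tested members of the zona, growth factor and meiosis list, 3 rose (1 under all 5 scalings) and 7 fell (7 under all 5 scalings), and the median log2 change was -3.42. Zp3, the egg coat protein that sperm bind in the mouse, measured 36.9 and 40.5 FPKM in the 2-cell libraries and 0.107 and 0.579 FPKM in the blastocyst libraries. Bmp15, an oocyte growth factor, had 20.3 and 10.3 FPKM in the 2-cell libraries and 0.0201 and 0 FPKM in the blastocysts. Its partner Gdf9 stood at 7.02 and 1.16 FPKM in the 2-cell libraries and at 0.146 and 0.253 FPKM in the blastocyst libraries, a spread between the 2-cell libraries too wide for a call (limma adjusted p = 0.106). Zp3 fell by a log2 change of -4.91 and Bmp15 by one of -3.94.

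Transcripts of the subcortical maternal complex, a protein assembly under the egg membrane, did not all change in the same direction in these libraries. In the subcortical maternal complex list, 2 rose (1 under all 5 scalings) and 2 fell (2 under all 5 scalings) of 7 tested, with a median log2 change of -1.16. Nlrp5, its scaffold protein also called MATER, measured 1.95 and 8.26 FPKM in the 2-cell libraries and was listed at 0 in both blastocyst libraries (log2 change -2.39, SE 0.64, limma adjusted p = 0.0412). Khdc3, an RNA-binding-like member also expressed in mouse embryonic stem cells, went the other way and had 0.0543 and 1.34 FPKM in the 2-cell libraries and 1175 and 1114 FPKM in the blastocyst libraries. Khdc3 was thus under 2 FPKM in both 2-cell libraries and more than 2 orders of magnitude higher in both blastocyst libraries, and its rise held under all 5 scalings (log2 change 9.51, SE 0.45, limma adjusted p = 0.00162). The labels give polyA RNA as the material, so a low 2-cell value does not show that the embryo lacked the message. Whether stored messages were missed for that reason was not tested. Ooep, a further member, stood at 7.34 and 0.0692 FPKM in the 2-cell libraries and at 50.6 and 59.9 FPKM in the blastocysts, so 1 of the 2-cell libraries held nearly none. Padi6 at 7.7 and 2.57 and then 1.52 and 1.45 FPKM and Tle6 at 1.94 and 5.18 and then 1.89 and 2.48 FPKM were not called. Among the Nlrp genes of the oocyte, 1 rose (0 under all 5 scalings) and 3 fell (3 under all 5 scalings) of 7 tested members, with a median log2 change of -1.82, with Nlrp14 (-3.21) and Nlrp9c (-4.20) falling to a listed 0.

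Genes that hold or clear stored messages were lower in blastocysts more often than higher. The maternal mRNA storage and clearance list had 24 tested members, of which 2 rose (1 under all 5 scalings) and 9 fell (9 under all 5 scalings), at a median log2 change of -0.82. Btg4, the adaptor that brings the deadenylase to maternal RNA, measured 128 and 69.7 FPKM in the 2-cell libraries and was listed at 0 in both blastocyst libraries. Pan3, a subunit of another deadenylase, had 149.6 and 173 FPKM in the 2-cell libraries and 1.98 and 5.35 FPKM in the blastocysts. Ythdf2, a reader of N6-methyladenosine needed for maternal RNA decay in mouse, stood at 369 and 421 FPKM in the 2-cell libraries and at 33.4 and 40.9 FPKM in the blastocyst libraries. In these 3 the 2-cell libraries were above the blastocyst libraries without overlap, as at 26.4% of all loci tested. The log2 changes were -6.58, -5.22 and -3.38 in that order. Zar1l (-3.71) and Cpeb1 (-2.17), which bind stored messages in the oocyte, also fell. The catalytic subunit gene Cnot7 measured 83.8 and 67.6 FPKM in the 2-cell libraries and 52.5 and 52.2 FPKM in the blastocysts and was not called (limma adjusted p = 0.0722). Patl2, an oocyte RNA-binding protein gene, was one of the 2 that rose, and had 0.285 and 0 FPKM in the 2-cell libraries and 9.3 and 7.76 FPKM in the blastocyst libraries. With the trend over transcript length removed (a length inferred from the values, as described below), the median of the group was -0.01 in place of -0.82.

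Most trophectoderm genes rose, and one of them had the largest rise of all loci tested. Of 35 tested members of the trophectoderm list, 30 rose (27 under all 5 scalings) and 2 fell (2 under all 5 scalings), and the median log2 change was 3.88. Krt18, a keratin of simple epithelia, stood at 0.0678 and 0.693 FPKM in the 2-cell libraries and at 3868 and 3860.1 FPKM in the blastocysts. Its filament partner Krt8 measured 0.451 and 0.643 FPKM in the 2-cell libraries and 1526 and 1489 FPKM in the blastocyst libraries. Both keratins were under 1 FPKM in each 2-cell library and among the abundant transcripts of each blastocyst library. The changes were 11.49 for Krt18 and 9.93 for Krt8 (limma adjusted p = 0.00151 for each). Tspan8, a membrane tetraspanin, had 0.966 and 0.76 FPKM in the 2-cell libraries and 613 and 617 FPKM in the blastocysts (8.37), and Id2, an inhibitor of basic helix-loop-helix factors, stood at 3.67 and 0.389 FPKM in the 2-cell libraries and at 361 and 567 FPKM in the blastocyst libraries (7.48). The transcription factors of the lineage were lower in level. Gata3 measured 0.577 and 1.06 FPKM in the 2-cell libraries and 175 and 181 FPKM in the blastocysts (6.63). Cdx2, which is needed to hold trophectoderm identity, had 0.0411 and 0.0352 FPKM in the 2-cell libraries and 6.78 and 9.21 FPKM in the blastocyst libraries (log2 change 3.10, SE 0.25, limma adjusted p = 0.00289). Elf3 stood at 0 and 1.86 FPKM in the 2-cell libraries and at 123 and 131 FPKM in the blastocysts and Eomes measured 0 and 0.0197 FPKM in the 2-cell libraries and 19.6 and 18.2 FPKM in the blastocyst libraries. Blastocyst libraries were above both 2-cell libraries for each of these 4 factors, as at 56.5% of all loci tested. Tfap2c, which is also made in the egg, had 8.99 and 19.6 FPKM at the 2-cell stage and 18 and 19.9 FPKM later, overlapping ranges with no call (limma adjusted p = 0.391). The 2 members that fell were Bex1, which had 58.6 and 59.6 FPKM in the 2-cell libraries and 7.01 and 9.49 FPKM in the blastocysts (log2 change -2.71, SE 0.22, limma adjusted p = 0.00301), and Dlx3 (-1.79).

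Most epithelial genes rose. In the keratins and epithelial cytoskeleton list, 19 rose (16 under all 5 scalings) and 0 fell of 21 tested, with a median log2 change of 3.68. The tight and adherens junctions list had 25 tested members, of which 21 rose (14 under all 5 scalings) and 0 fell, at a median log2 change of 2.34. Cldn4, a tight-junction claudin, was listed at 0 in both 2-cell libraries and stood at 96 and 82.9 FPKM in the blastocyst libraries. Ctnna1, the alpha-catenin that ties cadherin to actin, measured 8.83 and 9.51 FPKM in the 2-cell libraries and 143 and 149 FPKM in the blastocysts. Cdh1, the E-cadherin of compaction, had 3.01 and 2.53 FPKM in the 2-cell libraries and 27.9 and 25.3 FPKM in the blastocyst libraries. None of these overlapped between stages, as at 56.5% of all loci tested for a rise, and the changes were 6.50, 3.85 and 2.87. Epcam was already at 85.7 and 107 FPKM at the 2-cell stage and had 608 and 617 FPKM in blastocysts (2.66). Ctnnb1, the beta-catenin partner of Cdh1, stood at 12 and 21.3 FPKM in the 2-cell libraries and at 22.1 and 23.4 FPKM in the blastocysts and was not called (limma adjusted p = 0.287). Tagln2 and Anxa2, which bind actin and membranes, reached 219 and 244 FPKM and 275 and 293 FPKM (7.71 and 7.91).

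Of 30 tested members of the actomyosin list, 29 rose (24 under all 5 scalings) and 0 fell, and the median log2 change was 3.21. Actg1, the gamma cytoplasmic actin, measured 9.9 and 11.4 FPKM in the 2-cell libraries and 851 and 836 FPKM in the blastocyst libraries (log2 change 6.18, SE 0.14, limma adjusted p = 0.00151). Actb, its beta counterpart, started from a higher level. It had 255 and 313 FPKM in the 2-cell libraries and 711 and 1124 FPKM in the blastocysts, and its call was lost under another scaling (log2 change 1.66, SE 0.27, limma adjusted p = 0.0123). Tmsb4x, which sequesters actin monomers, stood at 1.69 and 12.5 FPKM in the 2-cell libraries and at 2073 and 1931 FPKM in the blastocyst libraries (8.38). Tpm1, a tropomyosin that coats actin filaments, measured 2.68 and 0 FPKM in the 2-cell libraries and 489.9 and 506 FPKM in the blastocysts (8.02). All of the blastocyst values exceeded all of the 2-cell values in these genes, as at 56.5% of all loci tested. Rhoa, the small GTPase of contractility, had a change of only 0.23 and was not called.

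For cavity formation the pump and channel list was small. In the sodium pump and aquaporins list, 4 rose (4 under all 5 scalings) and 1 fell (all 5 scalings) of 9 tested, with a median log2 change of 2.51. Aqp3, a channel for water and glycerol, had 0.0515 and 0.925 FPKM in the 2-cell libraries and 35.5 and 40 FPKM in the blastocyst libraries (log2 change 4.76, SE 0.38, limma adjusted p = 0.00289). Aqp8, another water channel, was listed at 0 in both 2-cell libraries and stood at 7.78 and 13 FPKM in the blastocyst libraries. Aqp11, an intracellular aquaporin, was the exception and measured 46.7 and 47.4 FPKM in the 2-cell libraries and 12 and 4.45 FPKM in the blastocyst libraries (log2 change -2.51, SE 0.49, limma adjusted p = 0.0188). Atp1b1, a beta subunit gene of the sodium pump that drives fluid into the cavity, had 16.1 and 0.15 FPKM at the 2-cell stage and 62.6 and 68.4 FPKM in blastocysts, but the spread of the 2-cell pair left it uncalled (limma adjusted p = 0.0874). In the group of endocytosis and lysosome genes, 21 rose (15 under all 5 scalings) and 3 fell (3 under all 5 scalings) of 32 tested members, with a median log2 change of 1.99. The proteases differed: Ctsd had 3.52 and 0 FPKM in the 2-cell libraries and 72.3 and 68.9 FPKM in the blastocysts (5.07), whereas Ctsl stood at 283 and 278 FPKM in the 2-cell libraries and at 70.1 and 66.3 FPKM in the blastocyst libraries (-2.02). Likewise the membrane protein Lamp1 rose from 21.7 and 18.3 to 238 and 206 FPKM (3.41), and Lamp2 fell from 128 and 122 to 24.9 and 26.7 FPKM (-2.24).

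Other genes among the 12 largest rises were not lineage markers of the lists. Fabp3, a fatty acid binding protein, measured 0.202 and 20.1 FPKM in the 2-cell libraries and 2983 and 3020.4 FPKM in the blastocysts, and the distance between its 2-cell libraries gave it the widest error of the 12 (log2 change 9.22, SE 1.53, limma adjusted p = 0.0124). Akr1b8, an aldo-keto reductase, had 0 and 0.629 FPKM in the 2-cell libraries and 922 and 853 FPKM in the blastocyst libraries (9.44). Spp1, the secreted phosphoprotein osteopontin, stood at 0 and 0.17 FPKM in the 2-cell libraries and at 572 and 518 FPKM in the blastocysts (log2 change 8.98, SE 0.20, limma adjusted p = 0.00151). Adh1, an alcohol dehydrogenase, measured 0 and 4.8 FPKM in the 2-cell libraries and 882 and 875 FPKM in the blastocyst libraries (8.51), and Capg, an actin-capping protein, had 0.157 and 0.199 FPKM in the 2-cell libraries and 434 and 417 FPKM in the blastocysts (8.50). In each of these 5 both blastocyst libraries were above 400 FPKM.

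Pluripotency genes were called in shares near those of all loci tested (42.6% higher and 18.1% lower). The epiblast and pluripotency list had 30 tested members, of which 14 rose (9 under all 5 scalings) and 4 fell (4 under all 5 scalings), at a median log2 change of 0.77. With quantile normalization that median was -0.16, so its sign depended on the scaling. Tdgf1, a co-receptor for Nodal, was listed at 0 in both 2-cell libraries and stood at 139 and 137 FPKM in the blastocyst libraries. Utf1, a chromatin-bound factor of pluripotent cells, measured 0 and 0.0727 FPKM in the 2-cell libraries and 89.4 and 103 FPKM in the blastocysts. Pou5f1, which encodes OCT4, had 0 and 0.12 FPKM in the 2-cell libraries and 17.5 and 14.9 FPKM in the blastocyst libraries. The blastocyst libraries were above the 2-cell libraries in all 3 (7.12, 6.55 and 4.02), as at 56.5% of all loci tested. Nanog, which had 0.078 FPKM in one 2-cell library and 6.07 FPKM in the other, stood at 43 and 38.8 FPKM in blastocysts, and its call did not hold under every scaling (log2 change 3.92, SE 1.02, limma adjusted p = 0.0381). Sox2 was low throughout, at 0.353 and 0 and then 2.46 and 1.86 FPKM, with the same reservation. Zfp42, known as REX1, stood at 1.86 and 10.8 FPKM in the 2-cell libraries and at 126 and 130.5 FPKM in the blastocysts (log2 change 4.48, SE 0.77, limma adjusted p = 0.0138). Spic, an Ets-family factor, fell from 379 and 361 to 78 and 75 FPKM (-2.26). Fgf4, the signal by which the epiblast induces primitive endoderm, fell from 9.07 and 7.35 to 1.54 and 0.867 FPKM (log2 change -2.07, SE 0.28, limma adjusted p = 0.00784). Dppa4 measured 338 and 259.7 FPKM in the 2-cell libraries and 164 and 153 FPKM in the blastocyst libraries (log2 change -0.90, SE 0.17, limma adjusted p = 0.017). Dppa5a was the most abundant transcript of the blastocyst libraries at 14671 and 14772 FPKM and was already at 4598 and 4170.0 FPKM at the 2-cell stage (1.75). Sall4, Klf4, Esrrb and Dnmt3l were tested and not called.

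Most primitive endoderm genes rose. Of 19 tested members of the primitive endoderm list, 14 rose (11 under all 5 scalings) and 3 fell (3 under all 5 scalings), and the median log2 change was 2.35. Gata6, the first factor of the lineage, was listed at 0 in both 2-cell libraries and had 16.4 and 12.2 FPKM in the blastocyst libraries. Sox17 was listed at 0 in both 2-cell libraries and stood at 4.48 and 5.13 FPKM in the blastocyst libraries. Sparc, a matrix protein that the lineage secretes, was listed at 0 in both 2-cell libraries and measured 19 and 19.2 FPKM in the blastocyst libraries. In all 3 the 2-cell libraries were listed at 0 (3.92, 2.54 and 4.33). Pdgfra was listed at 0 in both 2-cell libraries and had 2.17 and 3.88 FPKM in the blastocyst libraries, and its call was lost under another scaling. Gata4, which follows Gata6 in the lineage, stood at 9.23 and 3.9 FPKM in the 2-cell libraries and at 1.15 and 0.339 FPKM in the blastocysts (log2 change -2.06, SE 0.51, limma adjusted p = 0.0334). Both blastocyst libraries were below both 2-cell libraries, as at 26.4% of all loci tested. The other members that fell were Srgn (-3.32) and Cited1 (-2.04). Whole embryos were sequenced, so fewer cells of a lineage and less RNA per cell cannot be told apart.

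In the Hippo pathway, which keeps the coactivator YAP out of the nucleus of inner cells, 7 rose (5 under all 5 scalings) and 3 fell (3 under all 5 scalings) of 17 tested members, with a median log2 change of 1.0. These shares are near those of all loci tested, and the median turned to -0.03 with quantile normalization. Yap1 itself measured 14.8 and 17.6 FPKM in the 2-cell libraries and 4.83 and 4.23 FPKM in the blastocyst libraries (log2 change -1.63, SE 0.22, limma adjusted p = 0.00789). Its DNA-binding partner gene Tead4, needed for trophectoderm in mouse, had 2.94 and 4.84 FPKM in the 2-cell libraries and 17 and 15.6 FPKM in the blastocysts, a call that did not hold under every scaling. Vgll4, a competitor of YAP for TEAD factors, was listed at 0 in both 2-cell libraries and stood at 13.3 and 14.6 FPKM in the blastocyst libraries (3.90). Cyr61, a known target of YAP and TEAD in other mouse and human cells, was listed at 0 in both 2-cell libraries and measured 9.36 and 8.08 FPKM in the blastocyst libraries (3.28). The kinase-cofactor genes Mob1a (-1.88) and Mob1b (-2.40) fell, while the scaffold gene Amotl2 rose (3.42).

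Of the Fgf, Tgf-beta, Bmp and Wnt genes, 12 rose (9 under all 5 scalings) and 6 fell (6 under all 5 scalings) of 31 tested members, with a median log2 change of 1.33. These shares too are near those of all loci. The Sprouty genes Spry4 and Spry2, feedback inhibitors of receptor tyrosine kinases, fell. Spry4 had 26.1 and 22.9 FPKM in the 2-cell libraries and 0 and 0.0129 FPKM in the blastocyst libraries (log2 change -4.66, SE 0.22, limma adjusted p = 0.00162), and Spry2 stood at 398 and 392 FPKM in the 2-cell libraries and at 16.8 and 50 FPKM in the blastocysts (log2 change -3.72, SE 0.57, limma adjusted p = 0.0104). The receptor gene Fgfr2, active in trophectoderm and primitive endoderm, measured 1.08 and 0 FPKM in the 2-cell libraries and 8.99 and 17.3 FPKM in the blastocyst libraries (log2 change 3.23, SE 0.55, limma adjusted p = 0.013). Dusp6, a phosphatase induced by ERK signalling, had 0.641 and 2.26 FPKM in the 2-cell libraries and 12.3 and 12.3 FPKM in the blastocysts (2.52). Id3, a target of Bmp signalling, rose (4.00). Lef1 (-2.32) and Apc (-2.14), both of the Wnt pathway, fell.

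**Figure D3:**
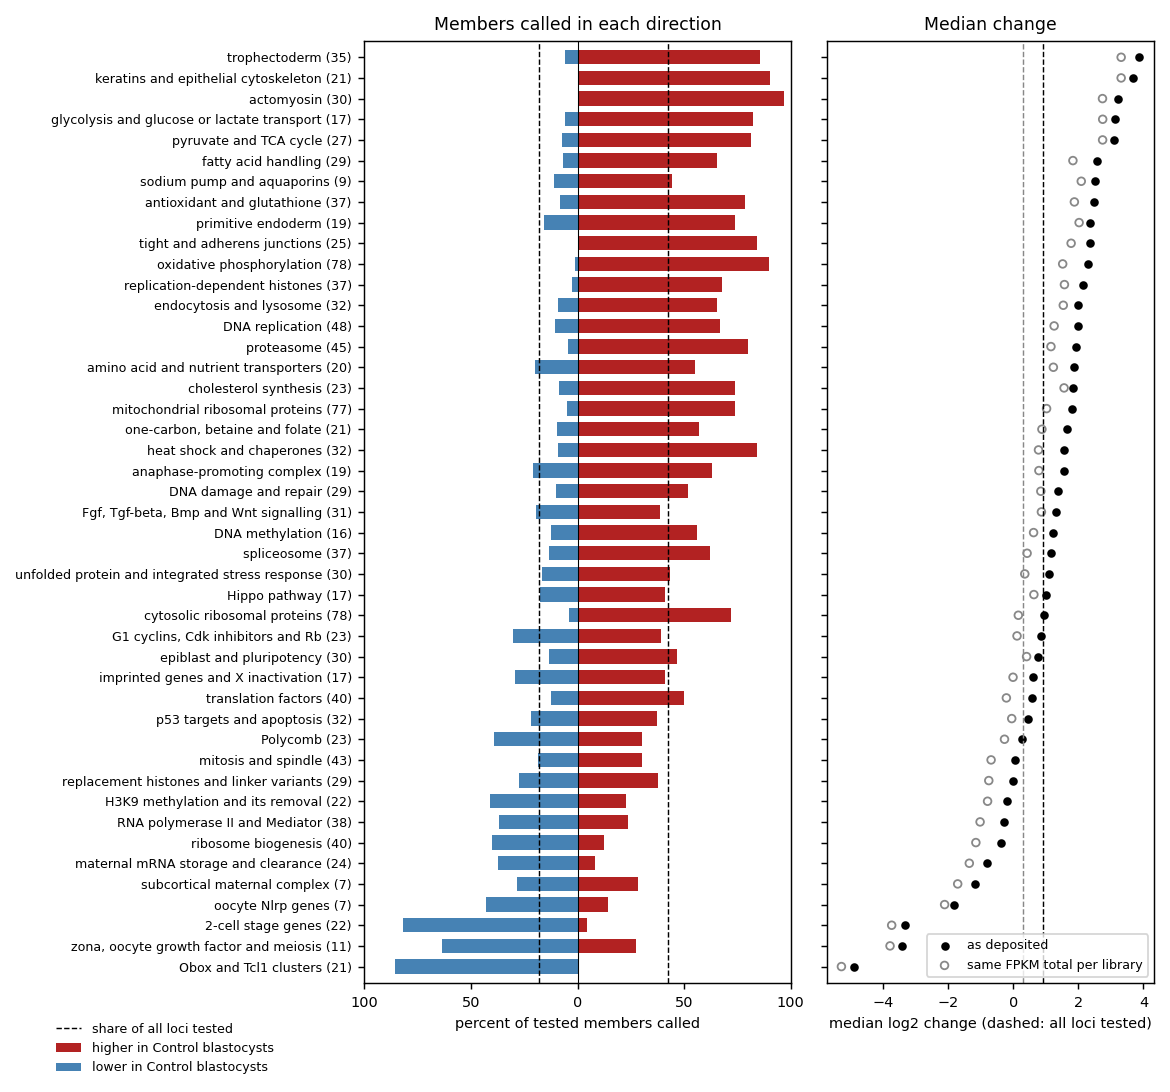
Left, percent of the tested members of each gene list (number in brackets, lists with at least 5 tested) called higher (red) or lower (blue) in Control blastocysts, with dashed lines at the 42.6% and 18.1% of all loci tested. Right, the median log2 change of each list as deposited (filled) and with the same FPKM total in each library (open); dashed lines mark all loci at 0.92 and 0.29, and trophectoderm genes (3.88) and the Obox and Tcl1 clusters (-4.90) lie at the ends.

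Most genes of energy metabolism rose. In the glycolysis and glucose or lactate transport list, 14 rose (11 under all 5 scalings) and 1 fell (all 5 scalings) of 17 tested, with a median log2 change of 3.13. Aldoa, an aldolase of glycolysis, stood at 10.8 and 3.01 FPKM in the 2-cell libraries and at 485 and 523 FPKM in the blastocyst libraries. Tpi1, triose phosphate isomerase, measured 0 and 0.0985 FPKM in the 2-cell libraries and 137 and 167 FPKM in the blastocysts. Gapdh had 13.8 and 2.04 FPKM in the 2-cell libraries and 289.5 and 284 FPKM in the blastocyst libraries. The 2-cell libraries of each lay below the blastocyst libraries (6.20, 7.18 and 5.42), as at 56.5% of all loci tested. Hexokinase gene Hk2 also rose (3.84). For glucose uptake, Slc2a3 (GLUT3) stood at 2.05 and 0.868 FPKM in the 2-cell libraries and at 58.9 and 55.6 FPKM in the blastocysts (log2 change 4.61, SE 0.33, limma adjusted p = 0.00236) and Slc2a1 (GLUT1) was listed at 0 in both 2-cell libraries and measured 3.31 and 4.06 FPKM in the blastocyst libraries (2.22). Pgk1, at 13.3 and 1.02 and then 59 and 53.9 FPKM, was not called (limma adjusted p = 0.0583). The lactate dehydrogenase genes differed. Ldhb had 102 and 50.2 FPKM in the 2-cell libraries and 0.27 and 0 FPKM in the blastocysts (log2 change -6.01, SE 0.44, limma adjusted p = 0.00249), while Ldha stood at 2.16 and 2.23 FPKM in the 2-cell libraries and at 7.72 and 8.67 FPKM in the blastocyst libraries, a rise that did not hold under every scaling.

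The pyruvate and TCA cycle list had 27 tested members, of which 22 rose (20 under all 5 scalings) and 2 fell (2 under all 5 scalings), at a median log2 change of 3.10. The 2 that fell were the subunits of the carrier that brings pyruvate into mitochondria. Mpc1 measured 449 and 389 FPKM in the 2-cell libraries and 115 and 95.3 FPKM in the blastocysts (log2 change -1.98, SE 0.16, limma adjusted p = 0.00278) and Mpc2 had 614 and 509.9 FPKM in the 2-cell libraries and 159 and 139 FPKM in the blastocyst libraries (-1.91). Both 2-cell libraries of each carrier gene were more than 3 times above the blastocyst libraries. Suclg1, a subunit of succinyl-CoA ligase, rose from 5.05 and 6.86 to 297 and 297 FPKM (log2 change 5.43, SE 0.20, limma adjusted p = 0.00151). Mdh1 (5.51) and Idh3a (5.25), of malate and isocitrate oxidation, also rose. Of 78 tested members of the oxidative phosphorylation list, 70 rose (57 under all 5 scalings) and 1 fell (all 5 scalings), and the median log2 change was 2.30. Uqcrc1, a core protein of complex III, stood at 6.82 and 6.72 FPKM in the 2-cell libraries and at 692 and 690.0 FPKM in the blastocysts (log2 change 6.48, SE 0.13, limma adjusted p = 0.00151). Atp5d of the ATP synthase (6.09) and Ndufa10 of complex I (5.54) were the next largest named. Cox6b2, the testis-type isoform of a complex IV subunit, was the exception and measured 81.9 and 43.9 FPKM in the 2-cell libraries and 18 and 16.7 FPKM in the blastocyst libraries (log2 change -1.74, SE 0.36, limma adjusted p = 0.0222).

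Most genes of cholesterol synthesis and of fatty acid handling rose as well. In the cholesterol synthesis list, 17 rose (11 under all 5 scalings) and 2 fell (2 under all 5 scalings) of 23 tested, with a median log2 change of 1.85. Insig1, which restrains sterol synthesis, had 388 and 483 FPKM in the 2-cell libraries and 27.2 and 38.9 FPKM in the blastocysts (log2 change -3.69, SE 0.24, limma adjusted p = 0.00216). Pmvk, phosphomevalonate kinase, rose (5.24). The fatty acid handling list had 29 tested members, of which 19 rose (16 under all 5 scalings) and 2 fell (2 under all 5 scalings), at a median log2 change of 2.57. Plin2, a coat protein of lipid droplets, stood at 5.61 and 0.407 FPKM in the 2-cell libraries and at 312 and 322 FPKM in the blastocyst libraries (6.70), and Acaa2, a thiolase of beta-oxidation, measured 1.06 and 0.0532 FPKM in the 2-cell libraries and 246 and 231 FPKM in the blastocysts (7.34). Cd36, a fatty acid transporter, fell from 2.31 and 2.87 FPKM to a listed 0 (-1.84). Among nutrient transporters, 11 rose (10 under all 5 scalings) and 4 fell (4 under all 5 scalings) of 20 tested members, with a median log2 change of 1.88. Tfrc, the transferrin receptor, had 50.9 and 68.9 FPKM in the 2-cell libraries and 4.92 and 5.95 FPKM in the blastocyst libraries (log2 change -3.23, SE 0.25, limma adjusted p = 0.00276). Slc38a4, an amino acid transporter that is imprinted in mouse, stood at 0 and 0.0364 FPKM in the 2-cell libraries and at 42.5 and 51 FPKM in the blastocysts (log2 change 5.55, SE 0.22, limma adjusted p = 0.00151).

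Ribosomal proteins need the scaling beside the count. Of 78 tested members of the cytosolic ribosomal proteins list, 56 rose (24 under all 5 scalings) and 3 fell (3 under all 5 scalings), and the median log2 change was 0.94. With the same FPKM total in each library the count was 26 higher and 18 lower and the median was 0.16. Single genes of this group moved in opposite directions with no overlap, as at 56.5% of all loci tested for a rise and 26.4% for a fall. Rpl41, the smallest ribosomal protein, measured 2829 and 2594 FPKM in the 2-cell libraries and 1406 and 1382 FPKM in the blastocyst libraries (log2 change -0.96, SE 0.06, limma adjusted p = 0.00196), and Rpl24 had 607 and 635 FPKM in the 2-cell libraries and 374 and 377 FPKM in the blastocysts (log2 change -0.72, SE 0.07, limma adjusted p = 0.00389). Rps2 stood at 91.2 and 71.4 FPKM in the 2-cell libraries and at 699 and 694 FPKM in the blastocyst libraries (log2 change 3.09, SE 0.16, limma adjusted p = 0.00167), and Rps18 measured 112 and 81.8 FPKM in the 2-cell libraries and 782 and 682 FPKM in the blastocysts (2.92). Ribosomal protein genes have many processed copies in the genome, and reads may have been shared with these. In the mitochondrial ribosomal proteins list, 57 rose (29 under all 5 scalings) and 4 fell (4 under all 5 scalings) of 77 tested, with a median log2 change of 1.79. Mrps35 was listed at 0 in both 2-cell libraries and had 52 and 46.7 FPKM in the blastocyst libraries (5.65), and Mrpl34 fell from 222 and 194 to 116 and 102 FPKM (-0.93).

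Factors of translation moved both ways, in shares near those of all loci tested (42.6% higher and 18.1% lower). The translation factors list had 40 tested members, of which 20 rose (11 under all 5 scalings) and 5 fell (5 under all 5 scalings), at a median log2 change of 0.57. That median turned to -0.23 with quantile normalization or upper-quartile scaling and to -0.21 with equal FPKM totals, where 11 were higher and 14 lower. Eif5a, which helps ribosomes through difficult peptide bonds, stood at 83.2 and 36.4 FPKM in the 2-cell libraries and at 2780.1 and 2837 FPKM in the blastocysts (log2 change 5.65, SE 0.44, limma adjusted p = 0.00274). Eef1g, a subunit of the elongation factor complex, measured 7.17 and 6.17 FPKM in the 2-cell libraries and 389.7 and 360.2 FPKM in the blastocyst libraries (5.62). Eef2, which moves the ribosome along, rose as well (4.61). Eif4e, which binds the cap, had 246 and 239 FPKM in the 2-cell libraries and 68.6 and 65.5 FPKM in the blastocysts (log2 change -1.84, SE 0.11, limma adjusted p = 0.00192), and Eif5b, which joins the subunits, fell (-1.56). In contrast, ribosome biogenesis was one of the groups with more falls than rises. Of 40 tested members of the ribosome biogenesis list, 5 rose (3 under all 5 scalings) and 16 fell (16 under all 5 scalings), and the median log2 change was -0.37. Rrn3, the initiation factor of RNA polymerase I, stood at 177 and 188 FPKM in the 2-cell libraries and at 31.7 and 34.4 FPKM in the blastocyst libraries (log2 change -2.43, SE 0.14, limma adjusted p = 0.00178). Nop56, a core protein of box C/D snoRNPs, was among the 5 that rose, from 57.1 and 43.2 to 251 and 229 FPKM (2.25).

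The general RNA polymerase II machinery also had more falls than rises. In the RNA polymerase II and Mediator list, 9 rose (1 under all 5 scalings) and 14 fell (14 under all 5 scalings) of 38 tested, with a median log2 change of -0.30. Gtf2a1, the large subunit of TFIIA, measured 193 and 222 FPKM in the 2-cell libraries and 7.76 and 9.33 FPKM in the blastocysts (log2 change -4.45, SE 0.19, limma adjusted p = 0.00151). Med31, a Mediator subunit, had 164 and 178 FPKM in the 2-cell libraries and 22.2 and 27.8 FPKM in the blastocyst libraries (log2 change -2.73, SE 0.18, limma adjusted p = 0.00217). Both were above 160 FPKM in each 2-cell library and under 30 FPKM in each blastocyst library. Polr2a, the largest subunit of the polymerase, rose from 1.25 and 1.36 to 4.63 and 5.54 FPKM, a call lost under another scaling (1.40). For splicing, 23 rose (9 under all 5 scalings) and 5 fell (5 under all 5 scalings) of 37 tested members, with a median log2 change of 1.15. Hnrnpk, a messenger-binding protein, rose from 39.6 and 44.3 to 398 and 350.2 FPKM (3.13). Snrpe, a core protein of spliceosomal snRNPs, fell from 920.4 and 913 to 407 and 413 FPKM (log2 change -1.16, SE 0.06, limma adjusted p = 0.00172).

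DNA replication genes mostly rose, with the licensing inhibitor gene Gmnn and the origin genes Orc4 and Orc6 among the exceptions. The DNA replication list had 48 tested members, of which 32 rose (22 under all 5 scalings) and 5 fell (5 under all 5 scalings), at a median log2 change of 1.98. Rfc3, of the clamp loader, was listed at 0 in both 2-cell libraries and stood at 38.5 and 41.3 FPKM in the blastocyst libraries. Pold2, of DNA polymerase delta, was listed at 0 in both 2-cell libraries and measured 57.4 and 63.5 FPKM in the blastocyst libraries. Tk1, thymidine kinase, had 20 and 3.54 FPKM in the 2-cell libraries and 251 and 248 FPKM in the blastocysts. These changed by 5.35, 5.94 and 4.68. Gmnn, the inhibitor of licensing, stood at 794 and 710.3 FPKM in the 2-cell libraries and at 222 and 217 FPKM in the blastocyst libraries (log2 change -1.77, SE 0.09, limma adjusted p = 0.00172). Orc4 (-1.41) and Orc6 (-1.22), of the origin recognition complex, fell too.

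Mitotic genes were split, with a share of falls near the 18.1% of all loci tested and a share of rises below the 42.6%. Of 43 tested members of the mitosis and spindle list, 13 rose (4 under all 5 scalings) and 8 fell (8 under all 5 scalings), and the median log2 change was 0.05. After removal of the FPKM total difference the median was -0.68, so its sign depended on the scaling. Spc25 and Spc24, partners in the kinetochore's NDC80 complex, went opposite ways. Spc25 measured 588 and 590.2 FPKM in the 2-cell libraries and 153 and 149.6 FPKM in the blastocysts (log2 change -1.95, SE 0.08, limma adjusted p = 0.00151), and Spc24 had 6.18 and 9.42 FPKM in the 2-cell libraries and 115 and 92.8 FPKM in the blastocyst libraries (log2 change 3.59, SE 0.28, limma adjusted p = 0.00276). Mki67 fell from 21.3 and 23 to 7.45 and 5.28 FPKM (-1.67), and Ccna2, cyclin A2, fell from 118 and 109.9 to 39.2 and 34 FPKM (-1.62). Ccnb2, cyclin B2, stood at 33.8 and 2.63 FPKM in the 2-cell libraries and at 381 and 389 FPKM in the blastocysts, with one of the 2-cell libraries an order of magnitude above the other, and its call was lost under another scaling (log2 change 5.10, SE 1.21, limma adjusted p = 0.0304). Cks2, a small subunit of cyclin-dependent kinases, measured 2722 and 2446 FPKM in the 2-cell libraries and 468 and 492 FPKM in the blastocyst libraries (log2 change -2.42, SE 0.08, limma adjusted p = 0.00151).

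For the anaphase-promoting complex, the ubiquitin ligase that ends mitosis, 12 rose (8 under all 5 scalings) and 4 fell (4 under all 5 scalings) of 19 tested members, with a median log2 change of 1.55. Fzr1, the coactivator also called CDH1 that acts in late mitosis and G1, had 0.117 and 0.233 FPKM in the 2-cell libraries and 16.5 and 16.5 FPKM in the blastocysts (log2 change 3.90, SE 0.21, limma adjusted p = 0.00172). Both 2-cell WT libraries were under 1 FPKM, and both blastocyst libraries were above 16 FPKM. In the 4 other 2-cell libraries of the series, labelled IVF or sIVF, Fzr1 ranged from 0.239 to 10.1 FPKM. In the 3 blastocyst libraries labelled Fzr1-OE, a different group, it ranged from 12.7 to 17.1 FPKM. Cdc20, the coactivator of early mitosis, rose from 130.4 and 91.7 to 398 and 406 FPKM (log2 change 1.87, SE 0.21, limma adjusted p = 0.00508). Ube2s, which extends ubiquitin chains, rose (5.66), and Ube2c, which starts them, was not called (log2 change 0.11). The subunit genes Anapc15 (log2 change -2.06, SE 0.12, limma adjusted p = 0.00182) and Cdc27 (-1.75) fell. Fbxo5, which encodes the inhibitor EMI1, stood at 33.7 and 18.2 FPKM in the 2-cell libraries and at 51.1 and 58.4 FPKM in the blastocyst libraries and was not called (limma adjusted p = 0.0635).

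Around the G1 phase, 9 rose (6 under all 5 scalings) and 7 fell (7 under all 5 scalings) of 23 tested members. Over all loci tested, 42.6% rose and 18.1% fell. The median log2 change of the group was 0.87 and turned to -0.03 with quantile normalization. The D cyclins went opposite ways: Ccnd3 measured 0.815 and 2.49 FPKM in the 2-cell libraries and 70 and 78.2 FPKM in the blastocysts (log2 change 4.90, SE 0.40, limma adjusted p = 0.00296), and Ccnd1 had 8.46 and 8.34 FPKM in the 2-cell libraries and 0.844 and 1.34 FPKM in the blastocyst libraries (-2.18). Rb1, the retinoblastoma protein gene, fell from 13.7 and 8.67 to 0.645 and 0.756 FPKM (-2.81). Cdk4 (3.19) and Cdk2 (2.57) rose.

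Histone genes differed by class. In the replication-dependent histones list, 25 rose (18 under all 5 scalings) and 1 fell (all 5 scalings) of 37 tested, with a median log2 change of 2.14. Their messages mostly lack a poly(A) tail, and the labels give polyA RNA as the material, so these values cover an unknown part of them. Hist1h2bc was listed at 0 in both 2-cell libraries and stood at 56.1 and 37.1 FPKM in the blastocyst libraries (5.54). The replacement histones and linker variants list had 29 tested members, of which 11 rose (5 under all 5 scalings) and 8 fell (8 under all 5 scalings). Over all loci tested, 42.6% rose and 18.1% fell. The median log2 change of the list was -0.01 as deposited. It was -0.70 (quantile), -0.76 (upper quartile), -0.43 (median ratio) and -0.75 (equal totals), where equal totals gave 6 higher and 16 lower. H2afx, the variant phosphorylated at DNA breaks, measured 0.141 and 0.299 FPKM in the 2-cell libraries and 195 and 164 FPKM in the blastocyst libraries (7.21), and H2afy, macroH2A1, rose (5.92). Hmgn3, a nucleosome-binding protein, fell from 53.7 and 80.5 to 0.778 and 0.181 FPKM (-5.53).

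Genes of DNA methylation and its removal moved both ways, as did all loci tested (42.6% higher and 18.1% lower). Of 16 tested members of the DNA methylation list, 9 rose (5 under all 5 scalings) and 2 fell (2 under all 5 scalings), and the median log2 change was 1.22. Dnmt3b, a de novo methyltransferase, had 0.754 and 0.416 FPKM in the 2-cell libraries and 18.7 and 20.7 FPKM in the blastocysts (log2 change 3.71, SE 0.24, limma adjusted p = 0.00208). Dnmt1, the maintenance enzyme, stood at 2.33 and 2.16 FPKM in the 2-cell libraries and at 4.42 and 4.65 FPKM in the blastocyst libraries, a call lost under another scaling. Tet3, the egg's dioxygenase for 5-methylcytosine, measured 4.42 and 2.53 FPKM in the 2-cell libraries and 0.175 and 0.60 FPKM in the blastocysts (log2 change -1.67, SE 0.35, limma adjusted p = 0.0212), and Tet2 rose (2.83). Tdg, the glycosylase that removes the oxidised base, was listed at 0 in both 2-cell libraries and had 24.8 and 19.7 FPKM in the blastocyst libraries (log2 change 4.53, SE 0.24, limma adjusted p = 0.00172). Dppa3, which protects maternal methylation in the zygote, was the most abundant transcript of the 2-cell libraries and stood at 5400.5 and 5611 FPKM in the 2-cell libraries and at 3301 and 3255 FPKM in the blastocysts (log2 change -0.75, SE 0.03, limma adjusted p = 0.00155).

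The series also profiled H3K9 marks, which repress repeats and genes. For writers, readers and erasers of H3K9 methylation, 5 rose (3 under all 5 scalings) and 9 fell (9 under all 5 scalings) of 22 tested members, with a median log2 change of -0.21; the median turned to 0.08 with the length trend removed. Cbx3, the reader HP1 gamma, measured 2575 and 3272 FPKM in the 2-cell libraries and 30.1 and 127 FPKM in the blastocyst libraries, and the blastocyst libraries differed from each other more than 4 times (log2 change -5.52, SE 0.77, limma adjusted p = 0.00826). Its relative Cbx1, HP1 beta, had 6.02 and 6.93 FPKM in the 2-cell libraries and 93.5 and 79.7 FPKM in the blastocysts (log2 change 3.55, SE 0.20, limma adjusted p = 0.00178). Trim28, the corepressor KAP1, stood at 16.9 and 14.9 FPKM in the 2-cell libraries and at 65.4 and 62.7 FPKM in the blastocyst libraries (log2 change 1.95, SE 0.17, limma adjusted p = 0.0034). The methyltransferase gene Ehmt2 (G9a) measured 0.20 and 0.115 FPKM in the 2-cell libraries and 8.75 and 7.95 FPKM in the blastocysts (3.01), while its partner Ehmt1 fell (-1.54). Setdb2 (-2.33) and the demethylase gene Kdm4c (-2.23) fell, and Setdb1 was not called (log2 change 0.50).

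Polycomb genes, whose complexes write H2AK119ub1 and H3K27me3, moved both ways, as did all loci tested (42.6% higher and 18.1% lower). In the Polycomb list, 7 rose (4 under all 5 scalings) and 9 fell (9 under all 5 scalings) of 23 tested, with a median log2 change of 0.28. That median turned to -0.84 (quantile), -0.28 (upper quartile) and -0.27 (equal totals). Pcgf1 had 226 and 173 FPKM in the 2-cell libraries and 9.81 and 9.19 FPKM in the blastocyst libraries (log2 change -4.24, SE 0.21, limma adjusted p = 0.00162), and Bmi1, its paralog in another form of the complex, stood at 94.5 and 118 FPKM in the 2-cell libraries and at 6.26 and 6.07 FPKM in the blastocysts (log2 change -3.90, SE 0.20, limma adjusted p = 0.00172). Suz12 (-1.93) and Rnf2 (-1.45) fell, and Cbx8 was listed at 0 in both 2-cell libraries and measured 4.72 and 5.94 FPKM in the blastocyst libraries (2.66). Ezh2, the methyltransferase, was not called (limma adjusted p = 0.0805). Among imprinted genes and those of X inactivation, 7 rose (5 under all 5 scalings) and 5 fell (5 under all 5 scalings) of 17 tested members. Over all loci tested, 42.6% rose and 18.1% fell. The median log2 change of the group was 0.62. That median turned to -0.48 (quantile), -0.02 (upper quartile) and -0.01 (equal totals). Igf2r, the maternally expressed receptor that clears Igf2, had 67 and 76.8 FPKM in the 2-cell libraries and 1.53 and 2.15 FPKM in the blastocysts (log2 change -4.69, SE 0.23, limma adjusted p = 0.00166). Phlda2, also maternally expressed, fell from 252 and 200.02 to 12.9 and 6.47 FPKM (-4.47). Snrpn, paternally expressed, stood at 30.4 and 16.3 FPKM in the 2-cell libraries and at 359 and 337 FPKM in the blastocyst libraries (log2 change 3.90, SE 0.34, limma adjusted p = 0.00328).

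Stress and quality-control genes matter to the series' subject and were described in the same way. The p53 targets and apoptosis list had 32 tested members, of which 12 rose (8 under all 5 scalings) and 7 fell (7 under all 5 scalings). These shares are near the 42.6% and 18.1% of all loci tested. The median log2 change was 0.44. That median turned to -0.44 (quantile) and to -0.05 (upper quartile and equal totals), where equal totals gave 8 higher and 9 lower. Gadd45a, a growth-arrest gene, measured 28.2 and 44.1 FPKM in the 2-cell libraries and 0 and 0.0577 FPKM in the blastocysts (log2 change -5.14, SE 0.31, limma adjusted p = 0.00191), while Gadd45g was listed at 0 in both 2-cell libraries and had 36.4 and 25.9 FPKM in the blastocyst libraries (4.99). Perp, a p53 target that also serves desmosomes, was listed at 0 in both 2-cell libraries and stood at 48.8 and 43.3 FPKM in the blastocyst libraries (5.55). Trp53 itself was not called (limma adjusted p = 0.0806). Of 32 tested members of the heat shock and chaperones list, 27 rose (16 under all 5 scalings) and 3 fell (3 under all 5 scalings), and the median log2 change was 1.55. Hspa8, the constitutive HSP70, measured 115 and 82.3 FPKM in the 2-cell libraries and 2652 and 2417 FPKM in the blastocyst libraries (log2 change 4.69, SE 0.20, limma adjusted p = 0.00151). Hspa2, known from spermatocytes, fell from 28.1 and 36.2 to 0.537 and 0.741 FPKM (-4.33), as did the heat-shock factor gene Hsf2 (-3.10).

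In the unfolded protein and integrated stress response list, 13 rose (8 under all 5 scalings) and 5 fell (5 under all 5 scalings) of 30 tested, with a median log2 change of 1.11, shares near those of all loci. Dnajb9, an endoplasmic reticulum co-chaperone, had 323 and 268 FPKM in the 2-cell libraries and 17.7 and 17.2 FPKM in the blastocysts (log2 change -4.00, SE 0.16, limma adjusted p = 0.00151). Xbp1, the factor spliced on stress of the endoplasmic reticulum, stood at 0.237 and 0 FPKM in the 2-cell libraries and at 69.2 and 74.2 FPKM in the blastocyst libraries (6.03), and Asns, asparagine synthetase, measured 0 and 0.278 FPKM in the 2-cell libraries and 77.8 and 69.2 FPKM in the blastocysts (6.04). The antioxidant and glutathione list had 37 tested members, of which 29 rose (23 under all 5 scalings) and 3 fell (3 under all 5 scalings), at a median log2 change of 2.48. Gsto1 had 0.686 and 0.145 FPKM in the 2-cell libraries and 286 and 243 FPKM in the blastocyst libraries (7.57), and Txn1, thioredoxin, stood at 1.17 and 0.165 FPKM in the 2-cell libraries and at 213 and 204 FPKM in the blastocysts (7.04). Mt1, a metallothionein, was high at both stages, at 1361 and 1348 and then 943 and 882 FPKM, and fell (log2 change -0.57, SE 0.06, limma adjusted p = 0.0043).

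Of 45 tested members of the proteasome list, 36 rose (22 under all 5 scalings) and 2 fell (2 under all 5 scalings), and the median log2 change was 1.93. Psmd2, of the regulatory cap, rose (5.23), and the activator gene Psme4, known from the testis, fell from 35 and 27.2 to 4.5 and 6.36 FPKM (-2.32). In the DNA damage and repair list, 15 rose (9 under all 5 scalings) and 3 fell (3 under all 5 scalings) of 29 tested, with a median log2 change of 1.37. Brca2 of recombination measured 34.7 and 23.4 FPKM in the 2-cell libraries and 3.15 and 3.01 FPKM in the blastocyst libraries (-2.86). For one-carbon metabolism, 12 rose (9 under all 5 scalings) and 2 fell (2 under all 5 scalings) of 21 tested members, with a median log2 change of 1.66. Bhmt, which uses betaine to remethylate homocysteine and is known in the mouse blastocyst, had 18.7 and 28.7 FPKM in the 2-cell libraries and 253 and 241 FPKM in the blastocysts (3.36). Mat2b, a regulatory subunit of methionine adenosyltransferase, fell from 172 and 167 to 35.5 and 34.9 FPKM (-2.23).

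Of 16 pairs of related genes, not all of them an egg-type gene and its relative, several exchanged the dominant form. The linker histone of the egg, H1foo, stood at 13.7 and 6.23 FPKM in the 2-cell libraries and at 0.0323 and 0 FPKM in the blastocyst libraries (log2 change -3.34, SE 0.43, limma adjusted p = 0.00687), and the replacement linker H1f0 measured 3.47 and 2.62 FPKM in the 2-cell libraries and 114 and 111 FPKM in the blastocysts (log2 change 4.82, SE 0.21, limma adjusted p = 0.00151). H1foo thus made up 79.7% and 70.4% of the pair's FPKM at the 2-cell stage and 0.03% and 0% in blastocysts. Ldhb's share of the Ldhb and Ldha pair went from 97.9% and 95.8% to 3.37% and 0%. Wee2, the oocyte kinase that holds meiosis, fell from 7.29 and 12.9 FPKM to a listed 0 (-3.42), and Wee1, its somatic relative, reached 6.43 and 5.08 FPKM, a rise lost under another scaling. Bcl2l10, an anti-apoptotic gene of the oocyte, fell from 25.7 and 41.1 FPKM to a listed 0 (-5.07), and Bcl2l1 reached 9.45 and 7.07 FPKM with the same reservation. Other pairs did not show an exchange. The ubiquitin hydrolase Uchl1 fell (-4.65), from 22.3% and 15.5% of the pair's FPKM, and Uchl3, which had 106 and 134 and then 200.2 and 201 FPKM, was the main form at both stages and changed sign with the scaling. Npm2, the egg's nucleoplasmin, had 40 and 11 FPKM in the 2-cell libraries and 0.382 and 0 FPKM in the blastocyst libraries (log2 change -4.24, SE 0.71, limma adjusted p = 0.0126), whereas Npm1, with 769.6 and 599 and then 662 and 636 FPKM, was not called (log2 change -0.06, SE 0.15, limma adjusted p = 0.724). Btg4 and Btg1 both fell, Slc2a1 and Slc2a3 both rose, and in 6 pairs one gene (Eif4e1b, Pabpc1l, Kpna7, Fbxo43, Aurkc or Taf7l) was below the level needed for a test.

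**Figure D4:**
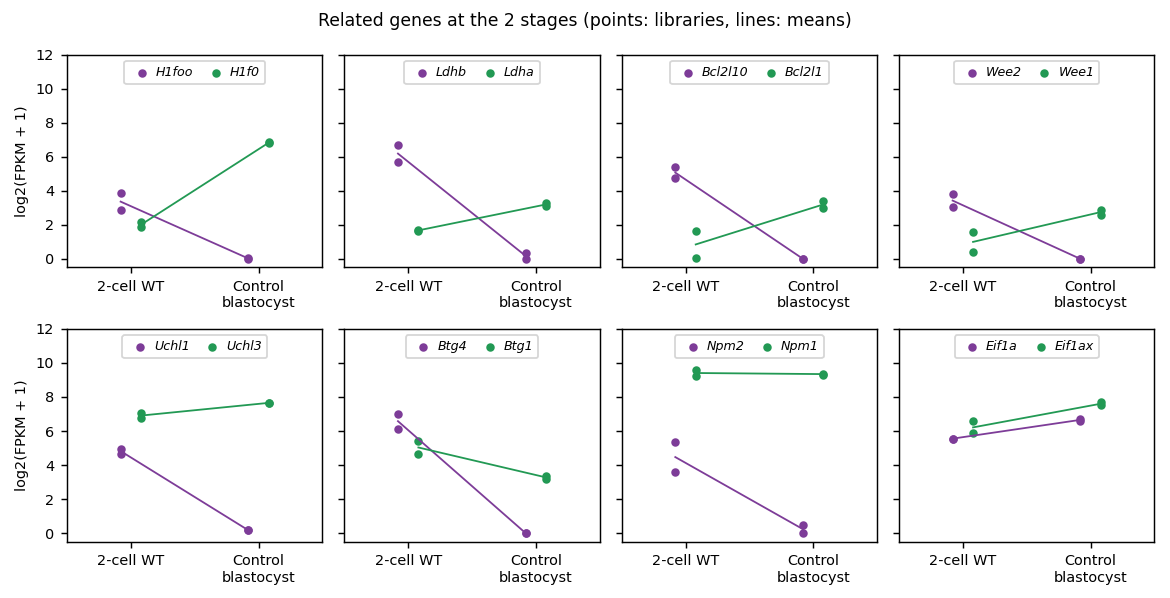
Levels of related gene pairs as log2(FPKM + 1) at the 2-cell stage and in blastocysts; points are libraries, lines join the means of 2 libraries, and purple marks the egg-type or first-named gene and green its relative. H1foo, Ldhb, Wee2 and Bcl2l10 drop to near 0 in blastocysts, whereas Npm1 stays between 599 and 770 FPKM in all 4 libraries.

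Few genes had a change shown to be small. A 95% interval of the log2 change within -0.5 to 0.5 was found at 39 of the 9693 loci, and one within -1 to 1 at 614. Calm2, a calmodulin gene and one of the 39, stood at 2958 and 2921 FPKM in the 2-cell libraries and at 3642 and 3658 FPKM in the blastocysts. H3f3b, a gene for histone H3.3 and another of them, measured 1420.3 and 1524 FPKM in the 2-cell libraries and 1884 and 1804 FPKM in the blastocyst libraries. Calm2 (0.31) and H3f3b (0.33) were called higher all the same, and the signs of both changed with the scaling. Of the 100 most abundant transcripts of each stage, 36 were shared. At the other extreme, 397 loci were listed at 0 in both 2-cell libraries and had 5 FPKM or more in both blastocyst libraries, and 92 were the reverse. Among the first were Cryab, a small heat-shock protein gene, which was listed at 0 in both 2-cell libraries and had 216 and 205 FPKM in the blastocyst libraries, and Ass1, argininosuccinate synthase, which was listed at 0 in both 2-cell libraries and stood at 109.9 and 112 FPKM in the blastocyst libraries.

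The change was smaller in transcripts of longer implied length. This length was not measured. It was inferred from the implied fragments per FPKM, which come from the confidence bounds of the same FPKM values. In 10 classes of equal size from short to long implied length, the median log2 change peaked at 1.65 in the third class and declined to -0.31 in the tenth. In the third class 524 loci rose and 141 fell, and in the tenth 184 rose and 305 fell. With the trend removed from the values, 4314 loci were called higher and 1612 lower. What the trend comes from was not tested.

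**Figure D5:**
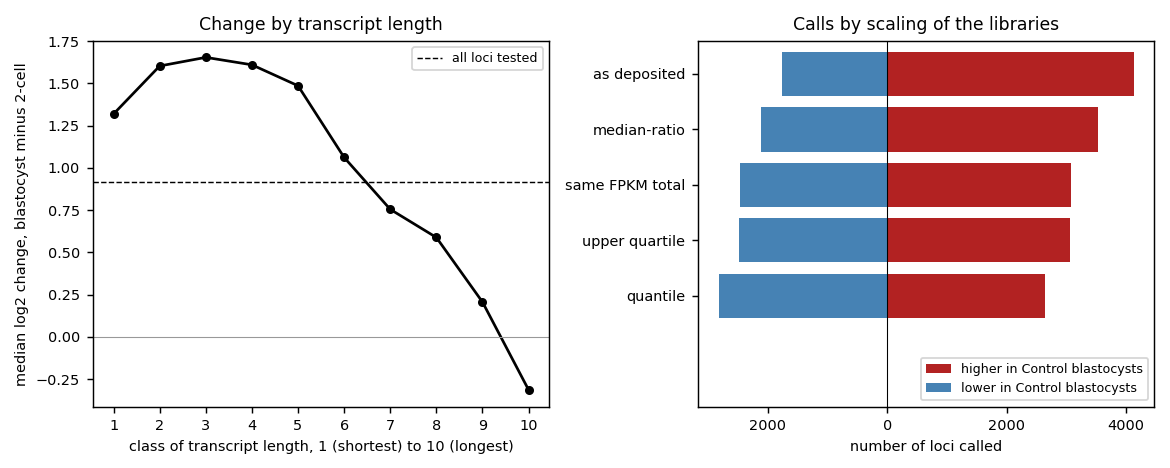
Left, median log2 change (blastocyst minus 2-cell) in 10 classes of transcript length from shortest to longest, against the median of all loci (dashed, 0.92). The length is inferred from implied fragments per FPKM and was not measured. The median falls to -0.31 in the longest class. Right, number of loci called higher (red) and lower (blue) in Control blastocysts under each of 5 scalings, from 4126 and 1757 as deposited to 2645 and 2822 after quantile normalization.

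The other embryo libraries of the series, which played no part in the fit, were looked at for the same split; this check was added after the data were seen. They were 4 libraries of 2-cell embryos labelled IVF or sIVF and 3 of Fzr1-OE blastocysts. All 3 of these blastocyst libraries lay above all 4 of these 2-cell libraries at 3640 of the 4126 loci that rose (88.2%), and below them at 3. At 1406 of the 1757 loci that fell (80%) they lay below, and at 3 above. Over all loci tested the shares were 48.7% above and 20.1% below, and among the 3810 not called 28.3% and 14.1%. These libraries share their stage, depth range and possible batch with the 4 used for the calls, so they repeat the contrast without separating those factors.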

How the data were processed

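The deposited tables hold one FPKM value per gene locus and library, computed by the authors; FPKM is already divided by transcript length and by library depth, and no read counts were used here. The submitters' processing notes name HISAT2 2.1.0, Trim Galore 0.6.4, Cufflinks 2.2.1, Cuffdiff and the mm9 build, without saying what each did. Per the labels, polyA RNA from cell lysates was reverse transcribed and the cDNA amplified for 18 to 20 cycles. Whether counting used strand is not given in the sources used here, so values of antisense and overlapping genes are uncertain. Low values came out as whole reads (within 0.05) at only 46.5% to 50.8%, so no count test was run. Implied fragments per library, the basis of the counting errors in the report, were derived from the FPKM and the confidence bounds of the tables.

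The 4 libraries were grouped by their labels. Values were transformed as log2(FPKM + 1), loci with a mean under 1 FPKM were left out, and limma 3.58.1 (R 4.3.3) was fitted with a mean-variance trend on 2 libraries per group and 2 residual degrees of freedom, with Benjamini-Hochberg adjustment over all 9693 loci and a threshold of 0.05. Other steps used Python 3.11.15, pandas 2.3.3, numpy 2.4.6, scipy 1.17.1 and matplotlib 3.10.9. The fit was tested on simulated data with the same 9693 genes, of which 50 were changed at each fold and 9493 were unchanged. It found 6% of genes changed 2-fold, 50% at 4-fold, 80% at 8-fold and 90% at 16-fold, with 9 false calls among the unchanged genes. In the data 60.7% of loci were called, a far larger share than was changed in the simulation. The Benjamini-Hochberg cut-off depends on that share, so the recovery rates do not carry over to these data. In all, 20 alternatives were run, 2 of them chosen after the data were seen.

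Genes named were the 12 largest changes in each direction at 5 FPKM or more, up to 4 called members per direction of each of 49 gene lists (6 for embryo, epithelium and metabolism lists), the 16 pairs, Fzr1, the 6 most abundant genes with a narrow interval and the 6 highest of those listed at 0 in one stage. Further list members were named after their values were seen, as were the promoter stretches. Members and lists were chosen with earlier results of these data known. Promoter sequences are from RefSeq (GRCm38.p6), matched by symbol for 7795 of 9625 tested symbols (81.0%), with chromosome 18 left out. The motifs searched on both strands were the TATA box, the CCAAT box, the GC box, the TEAD site, the 2 E-boxes and those of NRF1, E2F and a paired homeodomain. A few genes that the naming rule covers are not reported here.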

Additional observations from a re-analysis of the deposited data

How the results depend on the processing

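The direction of the majority of calls, 4126 higher against 1757 lower, turned with quantile normalization (2645 against 2822) and kept under the other 19 alternatives. A test against a 2-fold change left 2579 and 843. Leaving out 1 library at a time gave 1226 to 5088 higher and 198 to 2060 lower. The low ends came without a Control library (1226 and 198 without replicate 1, 1265 and 229 without replicate 2), where the lone Control library was assumed to vary like the 2-cell pair, which is the more variable. All other alternatives stayed within 1.5 times of both counts, with 3061 and 2489 under upper-quartile scaling and 3073 and 2471 with equal FPKM totals. Opposite calls numbered 4 to 5 loci under quantile normalization, upper-quartile scaling, equal totals and removal of the length trend, and 0 under the rest. Of the called genes named, 3 changed sign. Calm2 went from 0.31 to -0.16 (quantile), -0.49 (upper quartile), -0.108 (median ratio), -0.47 (equal totals) and -0.21 (length trend removed). H3f3b went from 0.33 to -0.14, -0.47, -0.095, -0.46 and -0.012 under the same 5, and Uchl3 to -0.073 (quantile), -0.049 (upper quartile) and -0.034 (equal totals). With equal totals, 8 genes named but not called also turned negative (Ctnnb1, Ezh2, Rhoa, Sall4, Setdb1, Tfap2c, Trp53 and Ube2c). The cause was not tested. The labels do not say that replicate numbers pair these libraries. The correlation of their deviations was 0.00086, which with 2 libraries a side cannot decide whether they were paired. With the replicate block the counts were 4084 and 1558, of which 3870 and 1508 were among the main calls. With 2 residual degrees of freedom and a counting error (2 SD) near 30% at 1 FPKM, small changes of low genes were not detectable at this depth.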

Other observations

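Promoter letters were also tallied for groups whose windows the report does not print. CACCTG was in 61.1% of the 18 windows of the Obox and Tcl1 clusters and in 40.7% of 27 trophectoderm windows, against 17.3% of all tested windows and 20.0% of all RefSeq windows. The tandem copies of the clusters share sequence and are not separate instances. The NRF1 motif was in 23.9% of 67 windows of oxidative phosphorylation genes, against 11.9% of tested windows.

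Chromosomes differed in their shares. The percent of tested loci that rose ran from 34.0% on chromosome 12 to 48.0% on chromosome 7, and the percent that fell from 15.1% on chromosome 8 to 24.2% on chromosome 1. The X chromosome had 354 tested loci, of which 38.7% rose and 17.5% fell. These shares are descriptions, and neighbouring copies of one family count separately in them.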
